A study of Mus musculus with 14 samples.

Results

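The proteasome genes of the mouse were taken as every gene symbol that starts with Psma, Psmb, Psmc, Psmd, Psme, Psmf or Psmg followed by a number, without the partner gene Psmc3ip and without pseudogene symbols. The rule gave 49 genes of 24345 symbols in the RNA-seq tables, and the same 49 of 24394 symbols in the tables of RNA immunoprecipitation (RIP). They are 7 alpha and 7 beta subunits of the constitutive core, 3 immunoproteasome subunits, 2 tissue-specific core subunits, 9 base and 8 lid subunits of the regulatory particle, 7 assembly chaperones, and 6 activator or inhibitor genes. Each lay at 1 locus, and the 49 were spread over 16 chromosomes.

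The study asked how splicing and expression differ between stem cells with and without Dppa5a and fibroblasts, and which RNAs the Dppa5a protein binds. RNA-seq was done in 4 groups. Dppa5a_KD are mouse embryonic stem cells of a home-made line with a Dppa5a knockdown. KD_control are wild type, untreated stem cells labelled as the control of the knockdown, mESC are a further group of wild type untreated stem cells, and MEF are wild type untreated primary mouse embryonic fibroblasts. RIP was done in 3 groups, all of stem cells that overexpress 3Flag-Dppa5a: HU_Flag_RIP (Flag antibody, cells given the treatment labelled HU), Flag_RIP (Flag antibody, untreated cells) and IgG_RIP (control IgG, untreated cells). Each of the 7 groups had 2 libraries. The labels do not say how the knockdown was made, what HU stands for, whether the stem cells were 1 clone, or whether each library had a culture of its own; p-values therefore cover the spread between these libraries and no more. Stem cells were kept on inactivated fibroblasts and moved to gelatin dishes before harvest, per the labels' protocols.

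The 26S proteasome degrades proteins that carry ubiquitin. Its core is a barrel of alpha and beta rings, in which the beta subunits Psmb5, Psmb6 and Psmb7 cut the substrate; the base holds the ATPases that unfold it, and the lid removes ubiquitin. Under interferon the subunits Psmb8, Psmb9 and Psmb10 take the places of Psmb5, Psmb6 and Psmb7 and favour peptides for antigen presentation. When proteasome activity falls short, the transcription factor Nfe2l1 raises most of the constitutive subunit genes together.

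Dppa5a, the targeted gene, had 101 and 358 FPKM (fragments per kilobase of transcript, scaled to library size) in the Dppa5a_KD libraries, against 5126 and 5417 FPKM in KD_control, 1485 and 1818 in mESC, and 0 and 0.0871 in MEF. In the RIP libraries it had 857 and 697 counts in HU_Flag_RIP, 1744 and 1282 in Flag_RIP, and 1163 and 1491 in IgG_RIP, and it was not called higher with the Flag antibody in either comparison with IgG. All 5 stem cell markers were above 1 FPKM in the 6 stem cell libraries and none was in MEF, while the 5 fibroblast markers summed to 5375 and 4352 FPKM in MEF. The FPKM of all genes summed to between 447657 and 585678 per RNA-seq library; read depth is not given there, but for members above 5 FPKM the median half-width of the deposited confidence bounds was 2.8% to 3.48% of the value. The RIP libraries held 3472020 to 13033886 counts, of which 39.3% to 73.2% fell on the ribosomal gene Rn45s. Many proteasome genes have processed copies in the genome and the labels do not say how reads matching several places were counted, so values of single members can carry reads of a copy. Nor do they say whether strand was kept, so reads of overlapping or antisense genes cannot be told apart. In bulk RNA, fewer cells of a type and less RNA per cell cannot be told apart.

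Proteasome RNA was abundant in all 4 cell groups and took the largest share of the transcriptome in the knockdown. The 49 genes held 1.29% and 1.26% of all FPKM in Dppa5a_KD, 1.04% and 1.03% in KD_control, 1.13% and 1.05% in mESC, and 0.816% and 0.864% in MEF. The knockdown libraries stood above all others, and the MEF libraries below all others. In each of the 8 libraries at least 95.5% of expressed genes lay below the median of the 14 constitutive core subunits. Of the 49 genes, 45 or 46 reached 1 FPKM in any 1 library; Psmb11, the core subunit of thymic epithelium, was at 0 in 7 libraries and at 0.0233 FPKM in 1, and Psme2b stayed at or below 0.0749 FPKM.

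Subunits that enter the complex in equal number were not equal in RNA. Within 1 library the highest of the 14 core subunits had 2.73 to 4.43 times the FPKM of the lowest. In mESC, the alpha subunits ran from 130.6 FPKM (Psma4) to 307 FPKM (Psma6) in library 1 and from 139 (Psma5) to 228 FPKM (Psma7) in library 2. The beta subunits ran from 69.3 FPKM (Psmb5) to 253 FPKM (Psmb3) in library 1 and from 169 (Psmb5) to 379 FPKM (Psmb3) in library 2. In both libraries of the knockdown and of its control, Psma7 led the alpha and Psmb7 the beta subunits, with 386 and 497 FPKM of Psmb7 in Dppa5a_KD and 410 and 425 FPKM in KD_control. Among base genes Psmc2 was lowest and Psmd2 highest in mESC library 1 (79.5 and 176 FPKM), and Psmc6 and Psmc5 in library 2 (93.2 and 187 FPKM); Psmd11 was the lowest lid gene in both (67.5 and 85.5 FPKM). Base genes had medians of 98.9 to 191 FPKM and lid genes of 96.8 to 129 FPKM over the 8 libraries. Assembly chaperones, which help build the rings and base and leave the finished particle, were lower, with medians of 28.1 to 46.2 FPKM. Psmd9 was the lowest of them in mESC, with 7.001 and 11.1 FPKM, and Psmg1 the highest, with 104 and 83.4 FPKM.

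**Figure D1:**
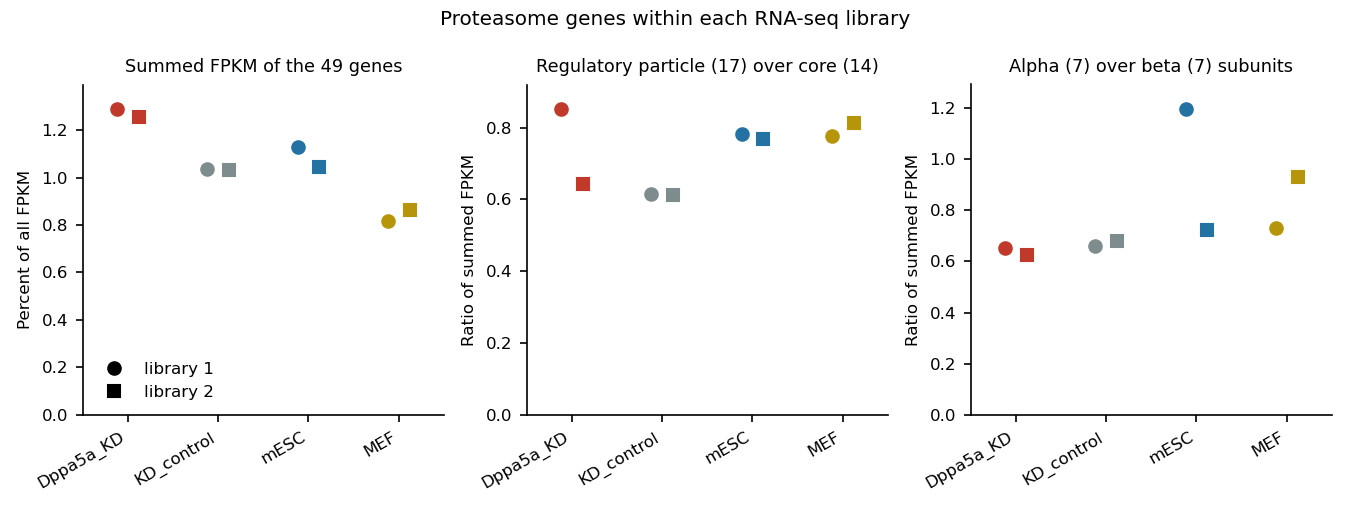
Each point is 1 RNA-seq library (circle, library 1; square, library 2). Left, the summed FPKM of the 49 proteasome genes as a percent of all FPKM, with Dppa5a_KD at 1.29% and 1.26% and MEF at 0.816% and 0.864%; middle, the summed FPKM of the 17 base and lid genes over that of the 14 core genes; right, alpha over beta subunits, where mESC library 1 stands apart at 1.20.

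The 2 libraries of a group differed far more in some groups than in others, and this sets what the tests can call. The higher library exceeded the lower by a median of 1.29-fold over the members in Dppa5a_KD, 1.03-fold in KD_control, 1.35-fold in mESC and 1.15-fold in MEF. The deposited bounds of the 2 libraries did not overlap for 38 members in Dppa5a_KD, 5 in KD_control, 40 in mESC and 28 in MEF. In mESC every constitutive beta subunit was lower in library 1 than in library 2, and so were Psma2, Psma4 and Psma7. Psma1, Psma3, Psma5 and Psma6 were higher in library 1, so the split did not follow the rings. The summed alpha over the summed beta subunits was 1.20 in library 1 and 0.722 in library 2. The same ratio was 0.651 and 0.624 in Dppa5a_KD, 0.660 and 0.680 in KD_control, and 0.730 and 0.928 in MEF.

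With Dppa5a knocked down, 5 of the 17 regulatory particle genes rose: Psmd6, Psmc1, Psmc3, Psmd13 and Psmc2. Over all genes tested 13.6% were called higher and 23.8% lower, and without either KD_control library 0 members were called higher. The immunoproteasome subunit Psmb9 was the single member that fell. None of the 14 core subunits, 7 chaperones or 5 tested activator and inhibitor genes was called.

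Psmc1, an ATPase of the base also called Rpt2, had 242 and 238 FPKM in Dppa5a_KD, against 143 and 142 FPKM in KD_control. Psmc3, the ATPase Rpt5, had 201 and 214 FPKM in Dppa5a_KD, against 124 and 126 FPKM in KD_control. Psmd13, the lid subunit Rpn9, had 219 and 213 FPKM in Dppa5a_KD, against 133 and 133 FPKM in KD_control. In each of the 3 genes every knockdown library lay far above both control libraries. Psmd6, the lid subunit Rpn7, had 97.7 and 104 FPKM in Dppa5a_KD, against 59.9 and 55.4 FPKM in KD_control. Psmc2, the ATPase Rpt1, had 96.6 and 106 FPKM in Dppa5a_KD, against 73.3 and 73.8 FPKM in KD_control. These groups did not overlap either, and the gap was smallest for Psmc2.

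On the log2(FPKM + 1) scale, in limma's moderated test with Benjamini-Hochberg adjustment over 12345 genes, the differences of Dppa5a_KD from KD_control were 0.80 ± 0.11 (SE) for Psmd6 (adjusted p = 0.0100), 0.75 ± 0.13 for Psmc1 (adjusted p = 0.0141), 0.73 ± 0.12 for Psmc3 (adjusted p = 0.0146), 0.70 ± 0.12 for Psmd13 (adjusted p = 0.0159) and 0.45 ± 0.11 for Psmc2 (adjusted p = 0.0359). As linear folds these are 1.74, 1.68, 1.66, 1.62 and 1.37. Of the 46 members tested, 5 were called higher and 1 lower. Among the 17 base and lid genes alone the count was 5 higher and 0 lower.

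Counted without a test, both Dppa5a_KD libraries exceeded both KD_control libraries for 12 of the 17 base and lid genes, for 3 of the 14 core genes and for 18 of the 46 members tested, against 30.8% of all genes tested. They lay below both for Psmd8 and Psmd11 in the lid and for 7 members in all, against 44.8% of genes tested. The median log2 difference was 0.31 for the 17 base and lid genes, 0.02 for the 14 core genes and 0.08 for the 46 members, beside -0.11 for all genes tested. In KD_control against mESC the median was -0.21 for the 17 base and lid genes, beside 0.19 for all genes tested. Both KD_control libraries lay below both mESC libraries for 8 of the 17 and above both for 5. Over all genes tested these shares were 32% and 47.9%. Psmd2, the large scaffold of the base, had 242 and 226 FPKM in Dppa5a_KD against 187 and 190 FPKM in KD_control (adjusted p = 0.131 in limma's fit). Psmd8, the lid subunit Rpn12, had 116 and 144 FPKM in Dppa5a_KD against 168 and 165 FPKM in KD_control (adjusted p = 0.126 in limma's fit).

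**Figure D2:**
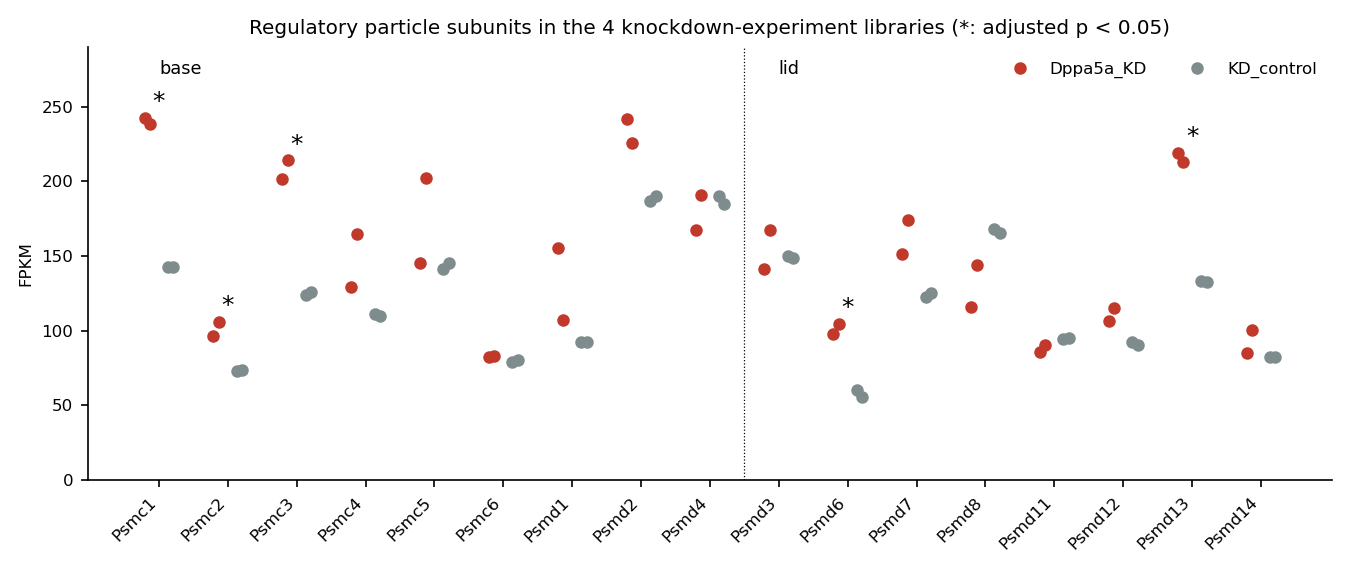
FPKM of the 9 base and 8 lid genes in the 2 Dppa5a_KD (red) and 2 KD_control (grey) libraries; each point is 1 library, and an asterisk marks an adjusted p under 0.05. The 5 marked genes, Psmc1, Psmc2, Psmc3, Psmd6 and Psmd13, have both red points above both grey points, while Psmd8 and Psmd11 have both below.

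The sum of the 17 base and lid genes over the sum of the 14 core genes was 0.852 and 0.644 in Dppa5a_KD, against 0.615 and 0.611 in KD_control, so the shift was large in knockdown library 1 and small in library 2. The ratio was 0.783 and 0.768 in mESC and 0.777 and 0.814 in MEF, so KD_control lay below all other libraries. Knockdown library 2 carried more of both parts: its core sums were 1575 FPKM for alpha and 2523 FPKM for beta subunits, against 1141 and 1751 FPKM in knockdown library 1. Median-ratio scaling, which moves the median of all genes by over 0.1, here to 0.05, gave 13 members called higher, and a common FPKM sum gave 9. The share of all genes called under these scalings is not given here, so these counts cannot be read as particular to the members. The calls also depended on single libraries: the count of members called changed strongly when a library of either group was left out. The cause of this was not tested.

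Promoter sequence is shown for 2 of the 5 genes, 1 from the base and 1 from the lid, as the 250 bases before the RefSeq start of the gene in GRCm38.p6, the assembly also named mm10; a CCAAT motif found on either strand is in capitals. The Psmc1 stretch is chr12:100109952-100110201 on the plus strand and the Psmd6 stretch chr14:14120946-14121195 on the minus strand.
Psmc1: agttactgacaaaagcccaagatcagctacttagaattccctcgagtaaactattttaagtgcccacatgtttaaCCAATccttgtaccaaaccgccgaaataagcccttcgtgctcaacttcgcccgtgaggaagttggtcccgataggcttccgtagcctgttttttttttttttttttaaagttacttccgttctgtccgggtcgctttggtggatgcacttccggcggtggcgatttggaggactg
Psmd6: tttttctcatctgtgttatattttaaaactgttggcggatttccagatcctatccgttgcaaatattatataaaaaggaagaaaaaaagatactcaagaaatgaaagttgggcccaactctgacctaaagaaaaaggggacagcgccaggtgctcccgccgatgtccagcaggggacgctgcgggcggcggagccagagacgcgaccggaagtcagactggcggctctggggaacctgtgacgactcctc
Psmc1 holds 1 CCAAT and Psmd6 holds none, and neither stretch holds TGANNNNGC, the core of the antioxidant response element that Nfe2l1 and related factors bind. Over all 44 promoter windows of 300 bases that matched 41 of the 49 genes (250 bases before and 50 after a start, RefSeq), TGANNNNGC stood in 56.8%, beside 41.3% of all 32851 windows. The stricter form TGACNNNGC, searched after the first was seen and contained in it, stood in 13.6%, beside 12.4% of all windows. CCAAT stood in 31.8% of the member windows and 37.4% of all windows, and the interferon-stimulated response element in 11.4% and 3.44%. Both strands were searched, and N stands for any base. The windows with the interferon element belonged to Psmb3, Psmd4, Psmd9, Psme1 and Psmg4.

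Of 24 tested partners of the proteasome outside the rule, 2 were higher in Dppa5a_KD and 4 were lower, below the 13.6% and 23.8% of all genes tested. Ubqln2, a shuttle that brings ubiquitinated proteins to the proteasome, had 34.9 and 29.4 FPKM in Dppa5a_KD against 18.2 and 19.1 FPKM in KD_control (log2 difference 0.75 ± 0.12, adjusted p = 0.0135, limma). Akirin2, which helps bring proteasomes into the nucleus, had 40.4 and 46.7 FPKM in Dppa5a_KD against 63.9 and 62.8 FPKM in KD_control (log2 difference -0.53 ± 0.12, adjusted p = 0.0268, limma). Nfe2l1 itself had 114 and 102 FPKM in Dppa5a_KD and 116 and 121 FPKM in KD_control and was not called.

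The immunoproteasome was low in all 4 groups, and its 3 subunits did not follow each other. Psmb8 was read in MEF and hardly elsewhere, Psmb9 stood out in KD_control, and Psmb10 was present in every library. In no library did any of the 3 exceed 5.61% of the FPKM of the constitutive subunit it replaces.

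Psmb9, the beta-1 immunoproteasome subunit, had 0.535 and 2.59 FPKM in Dppa5a_KD, against 8.84 and 7.51 FPKM in KD_control. It had 0.196 and 1.97 FPKM in mESC and 0.449 and 0.117 FPKM in MEF. The KD_control libraries were thus far above all 6 others, which overlapped each other between Dppa5a_KD and mESC. The log2(FPKM + 1) difference of Dppa5a_KD from KD_control was -1.96 ± 0.42 (adjusted p = 0.0238), and that of KD_control from mESC was 2.28 ± 0.47 (adjusted p = 0.0260), both in limma's test. These comparisons share the KD_control libraries. Without a filter on low values the adjusted p of the knockdown difference was 0.0536, and with a pseudocount of 0.1 that of KD_control against mESC was 0.0588. Psmb6, its constitutive counterpart, had 229 and 299 FPKM in Dppa5a_KD, 206 and 217 FPKM in KD_control, 138 and 235 FPKM in mESC, and 118 and 90.3 FPKM in MEF. Psmb9 therefore came to 0.234% and 0.868% of Psmb6 in Dppa5a_KD and to 4.29% and 3.45% in KD_control.

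Psmb9 lies at chr17:34182099-34187330 (mm10), next to Tap1, a subunit of the transporter that carries proteasome peptides into the endoplasmic reticulum. The 2 genes run in opposite directions from a shared stretch, which is shown whole because both genes fell in Dppa5a_KD; it is chr17:34187331-34187555 (GRCm38.p6) on the minus strand, the strand of Psmb9. Capitals mark TGANNNNGC on the strand shown and CCAAT on the opposite strand.
Psmb9 to Tap1: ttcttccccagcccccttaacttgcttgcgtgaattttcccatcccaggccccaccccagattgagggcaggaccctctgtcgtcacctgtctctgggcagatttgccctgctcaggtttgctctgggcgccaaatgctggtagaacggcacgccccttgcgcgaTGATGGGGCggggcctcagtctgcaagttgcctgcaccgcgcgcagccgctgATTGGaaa
The stretch of 225 bases holds no interferon-stimulated response element, nor do the 250 bases before the starts of the other 2 immunoproteasome genes, in which none of the 3 motifs was found. The Psmb8 stretch is chr17:34197945-34198194 on the plus strand and the Psmb10 stretch chr8:105938393-105938642 on the minus strand, both GRCm38.p6.
Psmb8: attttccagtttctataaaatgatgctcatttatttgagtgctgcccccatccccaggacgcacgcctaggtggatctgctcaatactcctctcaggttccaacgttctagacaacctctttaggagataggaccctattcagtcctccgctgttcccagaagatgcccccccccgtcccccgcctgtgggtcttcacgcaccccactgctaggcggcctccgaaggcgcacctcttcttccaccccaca
Psmb10: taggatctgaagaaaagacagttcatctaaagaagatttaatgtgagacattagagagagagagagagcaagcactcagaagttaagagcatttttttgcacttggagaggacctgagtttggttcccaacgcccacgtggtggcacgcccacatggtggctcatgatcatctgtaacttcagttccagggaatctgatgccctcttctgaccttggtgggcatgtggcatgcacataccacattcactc

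Tap1 had 3.49 and 3.26 FPKM in Dppa5a_KD, against 7.38 and 7.06 FPKM in KD_control, and 1.67 and 2.72 FPKM in mESC against 3.79 and 2.70 FPKM in MEF. Across a list of 11 antigen presentation genes, 9 were tested in the knockdown comparison and 6 of them fell, against 23.8% of all genes tested: Tap1, Tap2, Tapbp, B2m, H2-K1 and H2-D1. Tap2, the other part of the transporter, had 1.13 and 1.09 FPKM in Dppa5a_KD against 3.44 and 3.83 FPKM in KD_control (log2 difference -1.14 ± 0.11, adjusted p = 0.00622, limma). H2-K1, a class I heavy chain, had 21.0 and 28.0 FPKM in Dppa5a_KD against 68.8 and 66.2 FPKM in KD_control (log2 difference -1.44 ± 0.16, adjusted p = 0.0071, limma). In KD_control against mESC, 4 of 9 tested were higher (Tap1, Tap2, H2-K1, H2-D1), against 26.5% of all genes tested, and none was lower. Of the interferon response list, 1 of 6 tested (Stat2) fell in Dppa5a_KD against KD_control, and 1 of 6 (Bst2) was higher in KD_control against mESC, both shares below those of all genes.

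Marker genes of other cell types moved beside these differences. The 5 fibroblast markers summed to 6.51 and 6.41 FPKM in Dppa5a_KD, against 16.0 and 16.7 FPKM in KD_control and 2.14 and 5.88 FPKM in mESC, mostly from Thy1 and Pdgfrb, with 2 of 5 at 1 FPKM or more in all Dppa5a_KD and KD_control libraries; the collagen gene Col3a1 was at 0 or 0.00493 FPKM in all 6 stem cell libraries. In MEF the same markers summed to 5375 and 4352 FPKM, and Psmb9 had 0.449 and 0.117 FPKM. These fibroblasts were untreated, unlike the inactivated ones on which the stem cells were kept. The 5 endothelial markers summed to 28.7 and 30.3 FPKM in Dppa5a_KD, against 61.6 and 59.7 FPKM in KD_control and 15.9 and 25.0 FPKM in mESC, nearly all from Pecam1, a surface protein that stem cells also carry; Cdh5 was at or below 0.632 FPKM throughout. The 11 macrophage and blood markers summed to 84.3 and 91.3 FPKM in Dppa5a_KD against 50.8 and 49.4 FPKM in KD_control, from Laptm5 and Cd68, with 5 of 11 at 0 in each of these libraries. The part of these markers in the Psmb9 and antigen presentation differences was not tested.

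Psmb8, the beta-5 immunoproteasome subunit, had 0 and 0.0273 FPKM in mESC, against 2.28 and 1.40 FPKM in MEF. Its log2(FPKM + 1) difference of mESC from MEF was -1.47 ± 0.20 (adjusted p = 0.00245, limma), and the call held in every alternative fit that tested it; the filter at 5 FPKM left it out. It had 0.267 and 0.130 FPKM in Dppa5a_KD and 0 and 0.0803 FPKM in KD_control, too low to be tested. Psmb5, its constitutive counterpart, had 246 and 348 FPKM in Dppa5a_KD, 211 and 205 FPKM in KD_control, 69.3 and 169 FPKM in mESC, and 137 and 79.9 FPKM in MEF. Of the macrophage and blood markers, 2 of 11 reached 1 FPKM in each mESC library, against 7 and 6 of 11 in MEF, with summed levels of 39.3 and 32.5 FPKM in mESC against 45.5 and 46.2 FPKM in MEF. Of 6 of these markers tested, 4 were called lower and 1 higher in mESC, against 26.1% and 30.6% of all genes tested. The macrophage lysozyme Lyz2 was at 0 and 0.0332 FPKM in mESC, against 28.1 and 32.6 FPKM in MEF. The signalling adaptor Tyrobp was at 0 in mESC, against 4.07 and 3.33 FPKM in MEF. Laptm5 went the other way, with 34.5 and 26.5 FPKM in mESC against 1.14 and 1.09 FPKM in MEF, and made up most of the mESC sums. Cd68 had 4.30 and 5.63 FPKM in mESC against 4.09 and 3.56 FPKM in MEF and was not called. Macrophages express Psmb8; the part of these markers in the MEF level was not tested.

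Psmb10, the beta-2 immunoproteasome subunit, had 4.48 and 8.03 FPKM in Dppa5a_KD, 5.43 and 4.73 FPKM in KD_control, 7.25 and 14.8 FPKM in mESC, and 10.0 and 6.56 FPKM in MEF. KD_control lay below mESC and MEF, all other pairs of groups overlapped, and the gene was called in none of the 3 comparisons (adjusted p 0.543, 0.102 and 0.498 for Dppa5a_KD against KD_control, KD_control against mESC, and mESC against MEF, limma). The difference of KD_control from mESC, -0.91 ± 0.35, passed under median-ratio scaling (adjusted p = 0.0485) and a common FPKM sum (adjusted p = 0.0448). Psmb7, its constitutive counterpart, had 177 and 280.2 FPKM in mESC and 179 and 149.7 FPKM in MEF. Psmb10 came to 1.16% and 1.62% of Psmb7 in Dppa5a_KD, 1.33% and 1.11% in KD_control, 4.10% and 5.30% in mESC, and 5.61% and 4.38% in MEF.

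**Figure D3:**
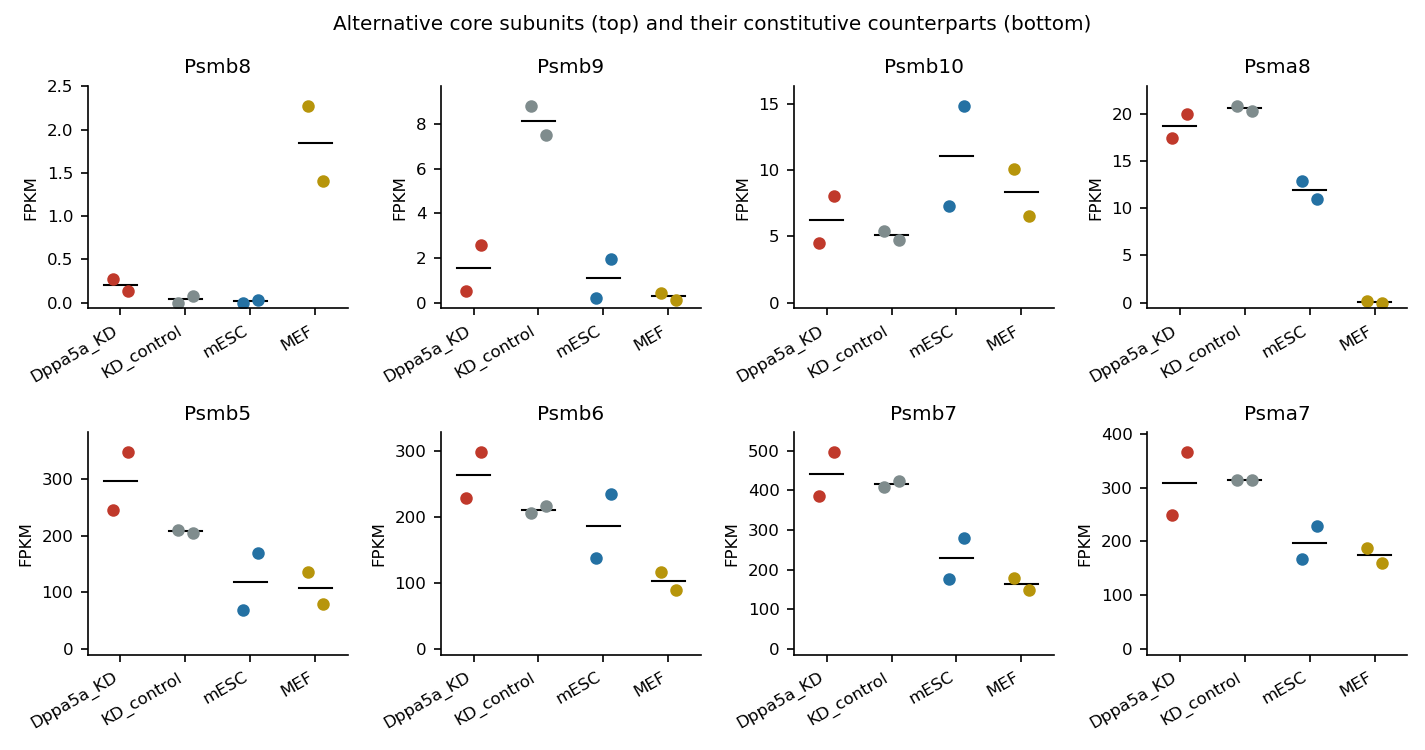
FPKM of the immunoproteasome subunits and of Psma8 (top row), each above the constitutive subunit whose place it takes (bottom row); points are libraries, lines are the means of 2, and every panel has its own scale from 0. Psmb8 is highest in MEF (2.28 and 1.40 FPKM), Psmb9 in KD_control (8.84 and 7.51 FPKM), and Psma8 is at or below 0.122 FPKM in MEF.

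Between stem cells and fibroblasts a few members differed strongly. The tested members with the largest rise in mESC were Psma8, Psmg1 and Psme4, and the 2 that fell were Psmb8 and Psme2. None of the 14 constitutive core subunits was called, although 13 of them had a positive difference. Of 47 members tested, 7 were called higher and 2 lower in mESC, against 30.6% of all genes tested called higher and 26.1% called lower (56.7% in either direction). Both mESC libraries exceeded both MEF libraries for 22 of the 47, against 44.2% of genes tested, and lay below both for 3 (Psmb8, Psmd8, Psme2), against 35.6%.

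Psma8, an alpha subunit known from testis that stands in for Psma7, had 12.9 and 11.0 FPKM in mESC, against 0.122 and 0 FPKM in MEF. It had 17.4 and 20.0 FPKM in Dppa5a_KD and 20.9 and 20.4 FPKM in KD_control, so the 6 stem cell libraries were all far above both MEF libraries. The log2(FPKM + 1) difference of mESC from MEF was 3.61 ± 0.19 (adjusted p = 0.000131, limma), and the call held in every alternative fit. Psma8 reached 7.72% and 4.84% of Psma7 in mESC and 0.065% and 0% in MEF. It lies at chr18:14706151-14762299 (mm10).

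Psmg1, a chaperone that pairs with Psmg2 to build the alpha ring, had 104 and 83.4 FPKM in mESC, against 29.2 and 28.1 FPKM in MEF (log2 difference 1.66 ± 0.22, adjusted p = 0.00226, limma). Its partner Psmg2 had 48.5 and 46.9 FPKM in mESC, against 38.4 and 33.1 FPKM in MEF, and was not called (adjusted p = 0.147, limma). Psme4, the activator PA200 of nuclear proteasomes, had 78.1 and 46.2 FPKM in mESC, against 18.6 and 25.0 FPKM in MEF (log2 difference 1.44 ± 0.32, adjusted p = 0.0139, limma). Psme3, the activator PA28-gamma, had 107 and 93.4 FPKM in mESC, against 49.8 and 58.9 FPKM in MEF (log2 difference 0.87 ± 0.22, adjusted p = 0.0210, limma). In all 3 called genes the mESC libraries lay above both MEF libraries. Psmd12 (0.95 ± 0.22) and Psmd11 (0.69 ± 0.22) of the lid and Psmc5 (0.79 ± 0.23) of the base were the other 3 called higher, with adjusted p of 0.0151, 0.0459 and 0.0341 in limma's fit.

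Psme1 and Psme2, the 2 subunits of the interferon-induced activator PA28, did not go together. Psme2 had 15.3 and 27.6 FPKM in mESC, against 47.4 and 41.2 FPKM in MEF (log2 difference -1.07 ± 0.32, adjusted p = 0.0350, limma). Psme1 had 31.0 and 44.0 FPKM in mESC, against 39.5 and 36.9 FPKM in MEF, and was not called (log2 difference -0.05 ± 0.25, adjusted p = 0.884, limma). The genes lie on the same chromosome, Psme1 at chr14:55578494-55581527 and Psme2 at chr14:55587440-55591101 (mm10). In Dppa5a_KD, Psme1 had 36.6 and 62.4 FPKM and Psme2 had 23.5 and 31.7 FPKM, against 59.3 and 61.6 FPKM and 22.8 and 26.3 FPKM in KD_control.

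Both MEF libraries lay below all 6 stem cell libraries for 18 of 47 members, against 34.8% of 13688 genes expressed in at least 1 group, a similar share. The 18 included 5 of 8 lid, 3 of 9 base, 2 of 7 alpha and 2 of 7 beta genes. Psmb8 and Psme2 were the members with both MEF libraries above all 6, against 24.7% of genes. Of 10 tested antigen presentation genes, 4 were lower in mESC than in MEF (B2m, Tap2, Erap1, Pdia3), and of 10 tested interferon response genes 6 were lower, against 26.1% of all genes tested. B2m, the light chain of class I, had 18.5 and 27.4 FPKM in mESC, against 366 and 458 FPKM in MEF (log2 difference -4.12 ± 0.28, adjusted p = 0.000265, limma). Of 24 partners, 3 were higher (Ubqln4, Ddi2, Uchl5) and 3 lower, AI314180 and Ngly1 among them, against 30.6% and 26.1% of all genes tested.

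The median log2 difference of mESC from MEF was 0.32 over the members tested and 0.15 over all genes, and under median-ratio scaling these were 0.19 and 0.01. The counts of members called also changed when a library was left out, and only Psma8 and Psmb8 kept their call whichever library it was. The share of all genes called in those fits is not given here.

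The untreated stem cells of the knockdown experiment and the mESC group, which carry the same genotype label, also differed. Psmb9, Psmb1 and Psma8 were higher in KD_control than in mESC, and Psmd6 was lower. Of 46 members tested, 3 were called higher and 1 lower, against 26.5% of all genes tested called higher and 15% called lower. Both KD_control libraries exceeded both mESC libraries for 17 of the 46, against 47.9% of genes tested, and lay below both for 15, against 32%. The labels do not tie these groups to 1 day or preparation, so group and preparation cannot be told apart. The stem cell marker Zfp42 had 34.3 and 36.6 FPKM in KD_control, against 406 and 502 FPKM in mESC, and its part in these differences was not tested. The KD_control libraries enter this comparison and the knockdown comparison, and the mESC libraries this one and that with MEF.

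Psmb1, a beta subunit without catalytic activity, had 341 and 332 FPKM in KD_control, against 155 and 199.5 FPKM in mESC (log2 difference 0.93 ± 0.19, adjusted p = 0.0254, limma). Psma8 had 20.9 and 20.4 FPKM in KD_control, against 12.9 and 11.0 FPKM in mESC (log2 difference 0.74 ± 0.15, adjusted p = 0.0243, limma); the difference was not called under median-ratio scaling (adjusted p = 0.0868) or a common FPKM sum (adjusted p = 0.111). Psmd6 had 59.9 and 55.4 FPKM in KD_control, against 107 and 109 FPKM in mESC (log2 difference -0.90 ± 0.14, adjusted p = 0.0145, limma). The Psmd6 levels in Dppa5a_KD (97.7 and 104 FPKM), mESC (107 and 109 FPKM) and MEF (106 and 109 FPKM) lay close together, and KD_control was the group that stood apart. By contrast the Psmc1, Psmc3 and Psmd13 levels in Dppa5a_KD exceeded those of all 6 other libraries; in mESC they were 102 and 147 FPKM, 109 and 146 FPKM, and 117.1 and 126 FPKM. For Psmc2, KD_control (73.3 and 73.8 FPKM) lay below all other libraries and Dppa5a_KD (96.6 and 106 FPKM) above all others. Between them were mESC, with 79.5 and 95.0 FPKM, and MEF, with 81.1 and 77.7 FPKM.

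The median log2 difference of KD_control from mESC was 0.10 over the members and 0.19 over all genes; under median-ratio scaling the members' median was -0.13 beside -0.02 for all genes. The members' median thus lay below that of all genes under both scalings. Of 24 partners, 2 were higher in KD_control, Nfe2l1 among them, and 4 lower (Zfand5, Uchl5, Ubqln2, Rps27a). Over all genes tested, 26.5% were called higher and 15% lower. Nfe2l1 had 116 and 121 FPKM in KD_control, against 29.99 and 43.2 FPKM in mESC (log2 difference 1.69 ± 0.22, adjusted p = 0.0108, limma). The counts of members called rose strongly when either mESC library was left out and fell when either KD_control library was. The share of all genes called in those fits is not given here, so the changes cannot be read as particular to the members.

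**Figure D4:**
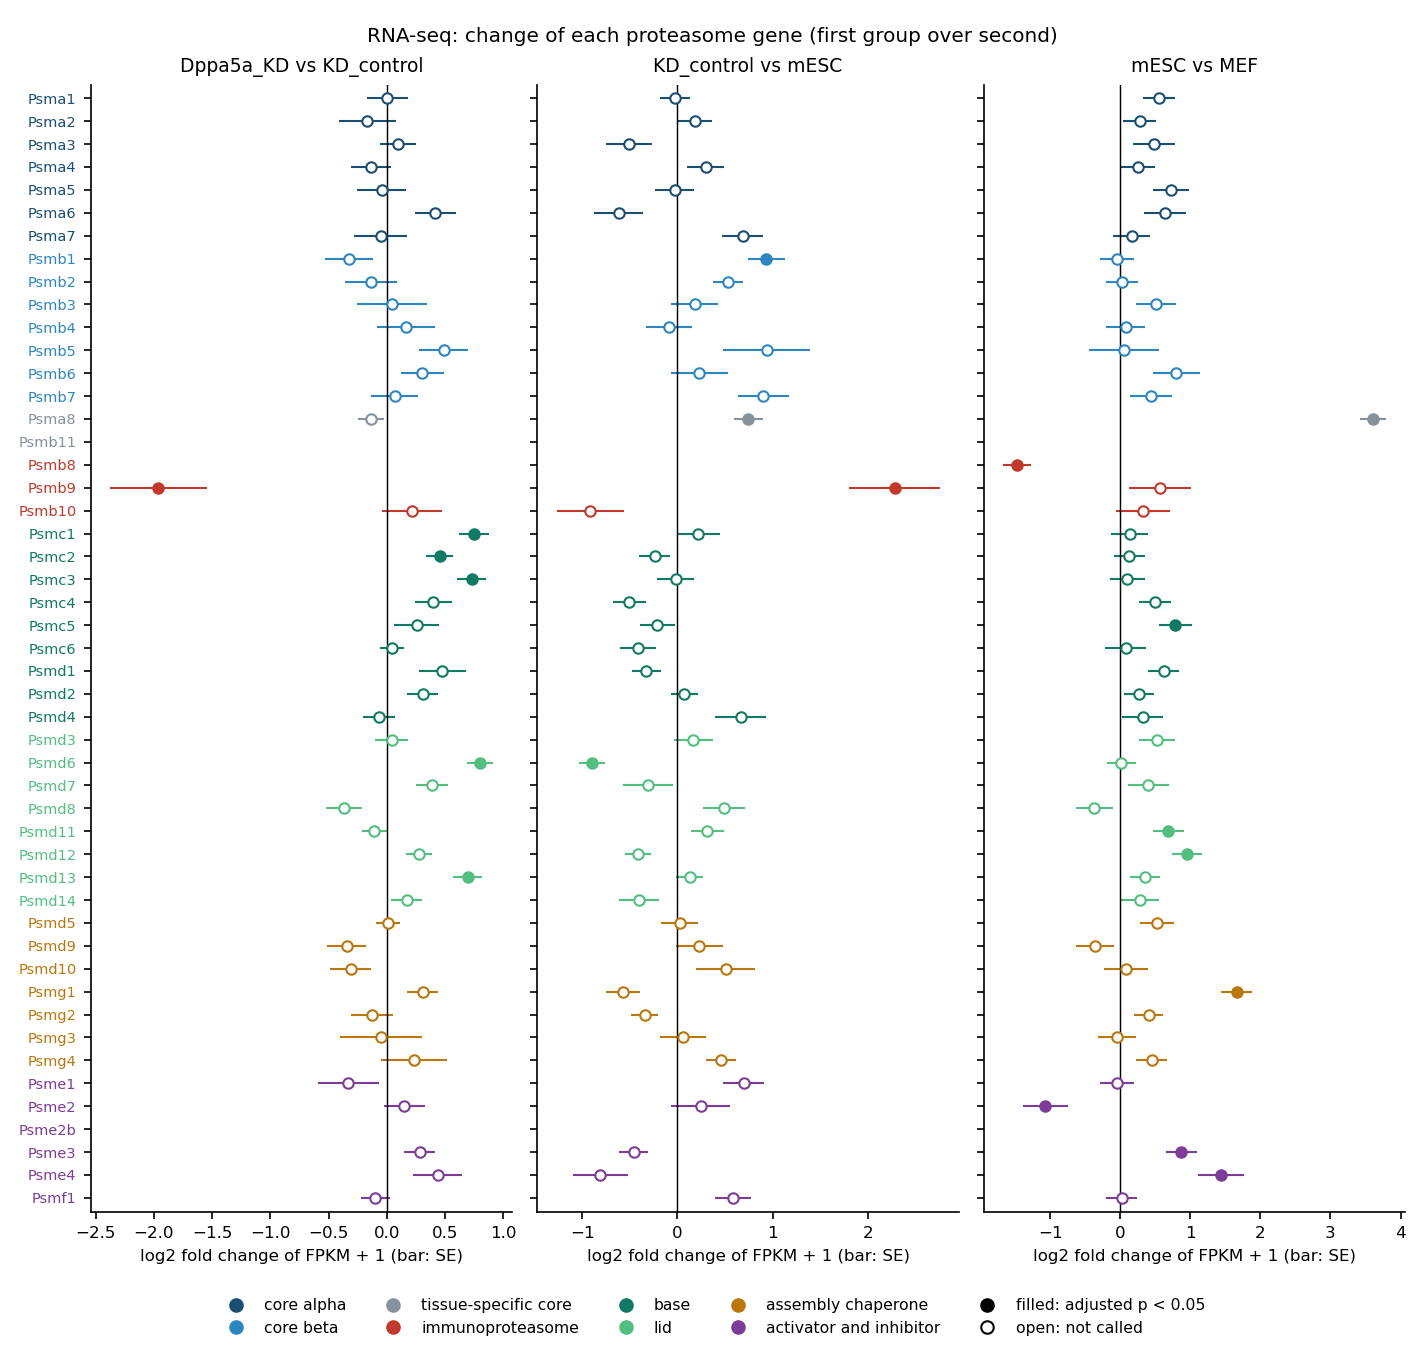
Log2 fold change of FPKM + 1 (first group over second) with its standard error for each of the 49 genes in the 3 RNA-seq comparisons, coloured by class; filled points have an adjusted p under 0.05, and members below 1 FPKM in both groups have no point. The filled points among base and lid genes lie to the right in the Dppa5a_KD panel, Psmb9 lies far left there and far right in the KD_control panel, and Psma8 lies at 3.61 in the mESC panel.

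In the RIP libraries, which ask what RNA comes down with Flag-tagged Dppa5a, no proteasome gene was called in any of the 3 comparisons. The 49 genes together had 6717 and 4715 counts in HU_Flag_RIP, 11009 and 6848 counts in Flag_RIP, and 4229 and 5945 counts in IgG_RIP. As a share of counts outside Rn45s this was 0.227% and 0.193% in HU_Flag_RIP, 0.309% and 0.270% in Flag_RIP, and 0.234% and 0.265% in IgG_RIP. The Flag_RIP shares lay above the IgG_RIP shares and the HU_Flag_RIP shares below them, but in both cases the nearest libraries of the 2 groups were closer to each other than the 2 libraries of any 1 group. Of 49 genes, 43 to 45 had 10 or more counts in a library, with medians of 68 to 215 counts.

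In edgeR's quasi-likelihood test with TMM scaling and Benjamini-Hochberg adjustment over 10473 genes, 0 of 45 tested members were called in HU_Flag_RIP against IgG_RIP, against 1.44% of all genes called higher and 1.42% lower (2.86% in either direction). In Flag_RIP against IgG_RIP the count was 0 of 45, against 1.16% of genes higher and 1.16% lower (2.32% in either direction), and in HU_Flag_RIP against Flag_RIP it was 0 of 45, against 0.143% higher and 0.468% lower. At an unadjusted p under 0.05 the edgeR counts were 4, 2 and 1, and DESeq2 called 0 members in each comparison. Beside these shares, 0 of 45 is near the background. The standard errors of the members' log2 differences, 0.28 to 1.06, limit what these libraries could show.

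Psmd11, the lid subunit Rpn6, came nearest to a call. It had 255 and 177 counts in HU_Flag_RIP, 364 and 226 counts in Flag_RIP, and 64 and 109 counts in IgG_RIP. The log2 difference was 1.01 ± 0.34 for HU_Flag_RIP against IgG_RIP (adjusted p = 0.114, edgeR) and 1.03 ± 0.33 for Flag_RIP against IgG_RIP (adjusted p = 0.119, edgeR); the comparisons share the IgG_RIP libraries. Psmf1, an inhibitor of the core known as PI31, had 11 and 12 counts in HU_Flag_RIP, 29 and 17 counts in Flag_RIP, and 44 and 28 counts in IgG_RIP. Its log2 differences from IgG_RIP, -1.97 ± 0.67 and -1.43 ± 0.64, were the lowest of the members and were not called (adjusted p 0.124 and 0.283, edgeR). Psme2 had 60 and 10 counts in HU_Flag_RIP, 33 and 22 counts in Flag_RIP, and 7 and 6 counts in IgG_RIP, and was not called (adjusted p 0.202 and 0.491 against IgG_RIP, edgeR).

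Of the genes called in the knockdown comparison, Psmc1 and Psmd6 serve as examples, 1 from the base and 1 from the lid. Psmc1 had 278 and 227 counts in HU_Flag_RIP, 378 and 267 counts in Flag_RIP, and 231 and 343 counts in IgG_RIP (log2 difference of Flag_RIP from IgG_RIP -0.57 ± 0.29, adjusted p = 0.375, edgeR). Psmd6 had 120 and 58 counts in HU_Flag_RIP, 154 and 118 counts in Flag_RIP, and 49 and 85 counts in IgG_RIP (log2 difference 0.30 ± 0.39 of Flag_RIP from IgG_RIP, adjusted p = 0.809, edgeR). Psmb8 had 1 and 0 counts in HU_Flag_RIP, 0 and 0 in Flag_RIP, and 5 and 1 in IgG_RIP; a count of 0 allows up to 3 counts, or 2.3e-05% and 3.17e-05% of the Flag_RIP totals, counting error only. Psmb9 had 0 and 11 counts in HU_Flag_RIP, 4 and 5 in Flag_RIP, and 1 and 0 in IgG_RIP. Both genes were too low to be tested.

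The scaling moved the members and all genes together. The median log2 difference over the members was -0.14 for HU_Flag_RIP against IgG_RIP, 0.17 for Flag_RIP against IgG_RIP and -0.22 for HU_Flag_RIP against Flag_RIP, beside 0.04, 0.02 and -0.00289 for all genes tested. With library size alone, in which Rn45s counts weigh fully, the medians were -1.09, -0.74 and -0.25, beside -0.88, -0.87 and -0.03 for all genes, and 21, 13 and 0 members were called lower. As the share of all genes called lower with library size alone is not given here, those counts cannot be read as particular to the members. The sign of the members' median turned for Flag_RIP against IgG_RIP alone, and there it lay above that of all genes under both scalings, as it lay below that of all genes under both in the other 2 comparisons. The macrophage lysozyme gene Lyz2 had 73 and 199 counts in HU_Flag_RIP, 34 and 33 in Flag_RIP, and 498 and 237 in IgG_RIP. It was called lower in Flag_RIP against IgG_RIP (log2 difference -4.23, adjusted p = 0.00014, edgeR) and higher in HU_Flag_RIP against Flag_RIP (2.50, adjusted p = 0.0187, edgeR), and was not called in HU_Flag_RIP against IgG_RIP (-1.72, adjusted p = 0.0516, edgeR). Its part in the members' values was not tested.

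**Figure D5:**
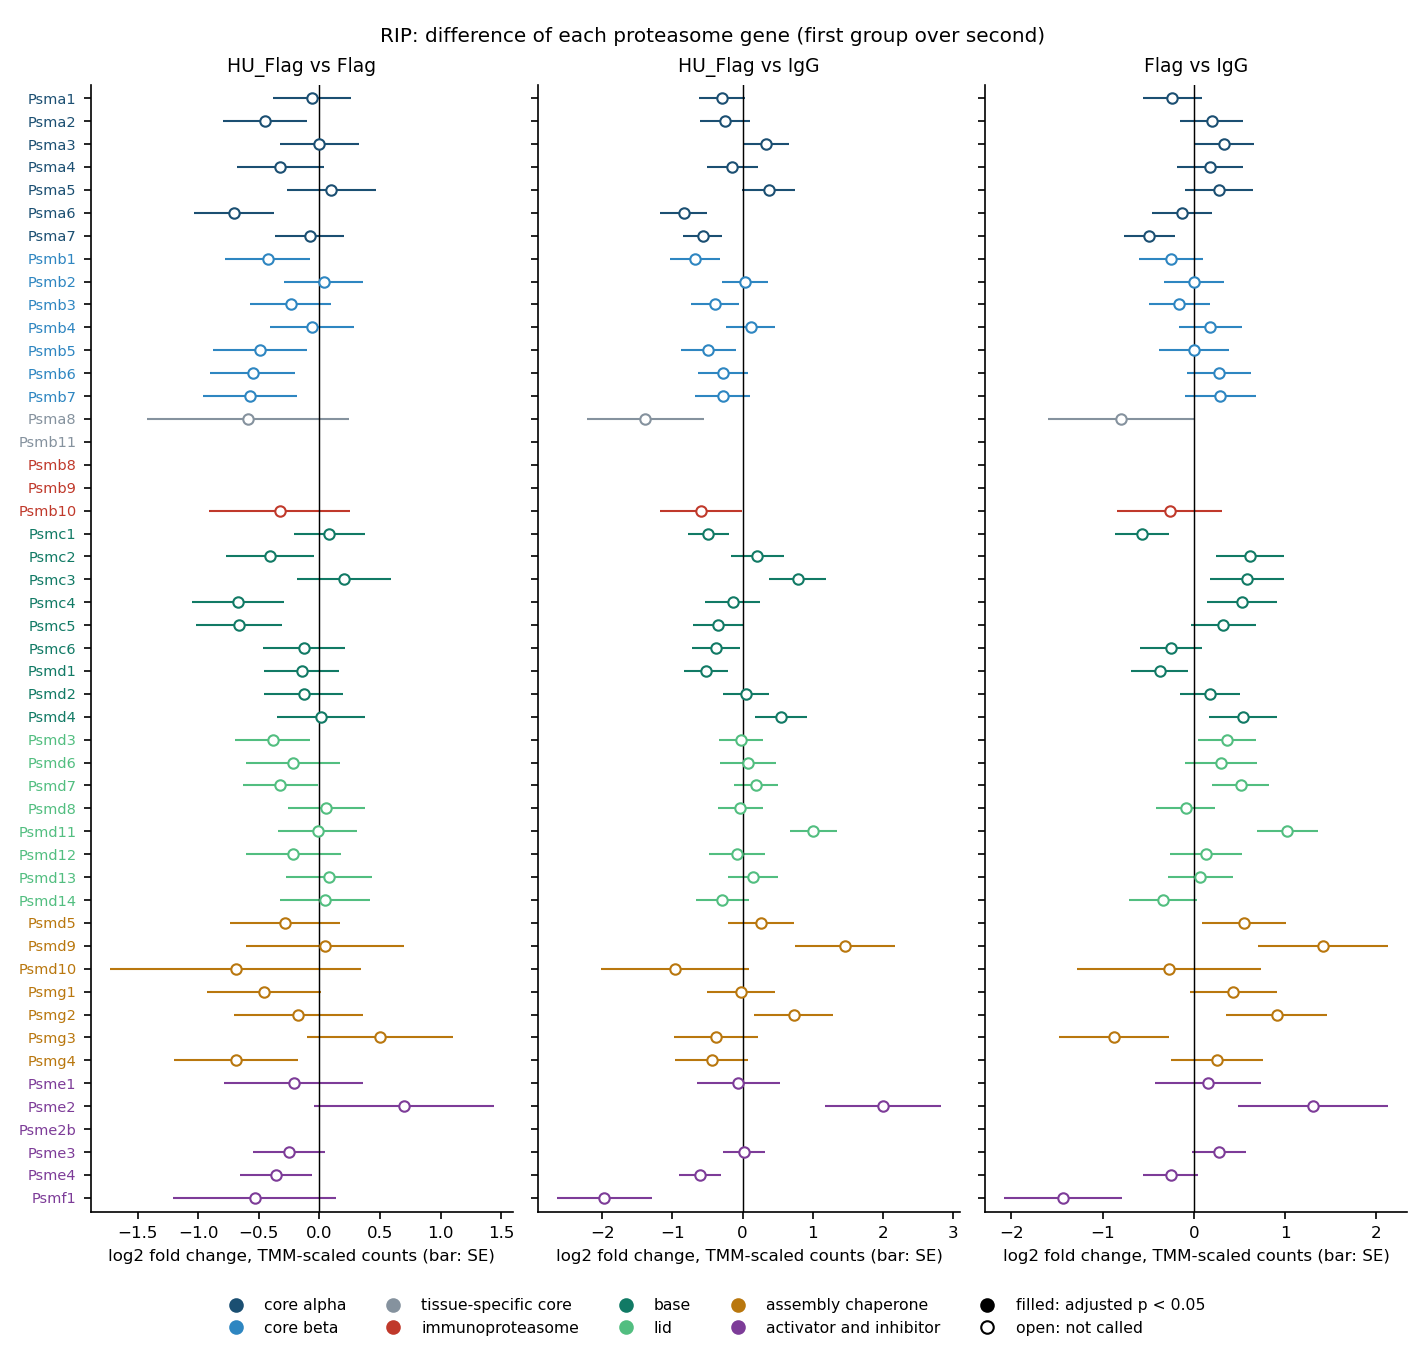
Log2 fold change of TMM-scaled RIP counts (first group over second) with its standard error for 45 members in the 3 comparisons; the 4 members without a point were too low to be tested. All points are open, since none had an adjusted p under 0.05, and with library size alone as the scaling the medians of the IgG comparisons move to -1.09 (HU_Flag) and -0.74 (Flag).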

How the data were processed

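RNA-seq of 8 libraries and RIP of 6 libraries were taken as deposited. The RNA-seq values are FPKM per gene, with lower and upper bounds, made by the authors; the RIP values are read counts per gene, deposited by the authors without normalization. The submitters' processing notes list HTSeq 0.6.1, Cuffdiff 2.1.1, Cufflinks 2.1.1, TopHat2 2.0.8 and CASAVA 2.19, with the mm10 build and no roles. The tables hold 24883 loci; FPKM of the 280 symbols with several loci, none of them a member, were summed. Left out were 1 gene with a failed estimate and 27 symbols turned into dates, which held 0.0206% to 0.0489% of counts.

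FPKM were tested as log2(FPKM + 1) with limma 3.58.1 (trend) in R 4.3.3, on the 4 libraries of a comparison keeping genes whose mean reached 1 FPKM in one or both groups; such fold changes understate those of low genes. Counts were tested in edgeR 4.0.16 (quasi-likelihood, TMM, filterByExpr) with all 6 libraries in 1 fit, and in DESeq2 1.42.0 as an alternative. P-values were adjusted by Benjamini-Hochberg over all genes tested, and an adjusted p under 0.05 was called. Both fits were tested on simulated data. With 2 against 2 libraries an exact permutation test cannot go below p = 0.333, so none was used.

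The members and the gene lists were chosen with earlier results of these data known. Named with all values were the immunoproteasome genes and their counterparts, Psme1 and Psme2, up to 3 called members per direction and comparison with the largest change and at least 5 FPKM or 20 counts, the highest and lowest of a class in mESC, and up to 3 called genes per pathway list (1 partner gene that the rule names is not reported here); the other called members, Psmd2, Psmd8, Psmg2, Nfe2l1 and the RIP genes short of a call were added after their values were seen. Promoter windows came from RefSeq (GRCm38.p6). Alternatives were other pseudocounts, filters, scalings, fits over all libraries, a replicate block, and leaving out each library.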

Additional observations from a re-analysis of the deposited data

How the results depend on the processing

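With 2 libraries a group, the counts of members called depend on single libraries. Leaving out each replicate in turn gave 0 to 31 members called higher and 1 to 22 lower in Dppa5a_KD against KD_control, 1 to 27 higher and 0 to 21 lower in KD_control against mESC, 1 to 10 higher and 1 to 3 lower in mESC against MEF, and 0 in each RIP comparison; a lone library was assumed to vary like the others. Without a filter on low values, 0 members were lower in Dppa5a_KD and 1 was lower in mESC against MEF, and with a filter of 5 FPKM that last count was also 1. Median-ratio scaling gave 13 higher in Dppa5a_KD and 7 lower in KD_control against mESC, and a common FPKM sum gave 9 and 3; median-ratio scaling moved the median of all genes to 0.05, -0.02 and 0.01 in the knockdown, KD_control and mESC comparisons, beside -0.11, 0.19 and 0.15. With all 8 RNA-seq libraries in 1 fit, 12 members were higher in mESC against MEF, and 6 were higher and 2 lower in KD_control against mESC. With library size alone, 13 members were lower in Flag_RIP and 21 in HU_Flag_RIP, each against IgG_RIP. For no alternative fit is the share of all genes called given beside the count, so these counts cannot be read as particular to the members. The cause of these changes was not tested.

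The main fits did not treat the replicate numbers as pairs, since the labels do not say whether they mark any. The replicates' deviations correlated at -0.55 for mESC and MEF, 0.01 for Dppa5a_KD and KD_control, and 0.06 for KD_control and mESC. For HU_Flag_RIP and Flag_RIP the correlation was 0.36, the highest of 6. These values cannot show whether the samples were paired. With the replicate number as a block, 3 members were higher and 2 lower in mESC against MEF, 4 higher and 1 lower in Dppa5a_KD against KD_control (Psmc2 was no longer called, adjusted p = 0.0836 in limma's fit), 6 higher and 3 lower in KD_control against mESC, and 0 in each RIP comparison. With the pairing crossed in mESC against MEF, an alternative chosen after seeing the data, the counts were 15 higher and 2 lower.

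Among single genes, Psmb10 changed sign when a library was left out. Its log2 difference ranged from -0.15 (without mESC replicate 2) to 0.79 in mESC against MEF, from -0.15 (without Dppa5a_KD replicate 2) to 0.57 in Dppa5a_KD against KD_control, from -0.79 to 0.15 (without Flag_RIP replicate 1) in Flag_RIP against IgG_RIP, with 0.0088 without IgG_RIP replicate 1, and from -0.74 to 0.21 (without Flag_RIP replicate 2) in HU_Flag_RIP against Flag_RIP.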
